A study of Mus musculus with 4 samples.

Results

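The cytosolic large ribosomal subunit mRNAs are described here in 2 fractions of the mouse heart. They were taken as the genes with the Ensembl biotype protein-coding whose symbol is Rpl followed by a number, with or without a closing a, l or l1, or is Rplp0, Rplp1 or Rplp2. The rule found 49 of the 15746 listed genes, of which 12321 are protein-coding. It includes 3 genes whose symbols mark paralogs, Rpl3l, Rpl7l1 and Rpl22l1, which are set against Rpl3, Rpl7 and Rpl22. The paralogs Rpl10l and Rpl39l were not among the 49 genes that the rule found.

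The large, or 60S, subunit of the cytosolic ribosome holds the centre where peptide bonds are made, the tunnel through which the new protein leaves, and the stalk that binds the elongation factors. Its proteins are made in the cytosol, are imported into the nucleolus and are assembled there with the ribosomal RNAs before the subunit is exported. The mRNAs of these proteins are short and abundant, and many start with a C followed by a run of pyrimidines, the terminal oligopyrimidine (TOP) sequence through which mTOR signalling controls their translation. In striated muscle, Rpl3l takes the place of Rpl3 in a part of the ribosomes.

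RNA was sequenced from isolated mitochondria and from the remaining tissue fraction of wild-type adult mouse hearts, with 2 libraries each, named mitochondrial replicates 1 and 2 and rest replicates 1 and 2. The rest fraction was the low-speed pellet of the homogenate. In the methods, the supernatant left after the mitochondria were pelleted was removed, and no library of it is described. The comparison is therefore not one of mitochondria with the whole remaining cell. In the methods, digitonin, RNase A and an adjusted fragmentation time are described for the mitochondrial samples alone, and therefore cannot be told apart from the fraction. The number of animals behind a library is not given in the sources used here, and p-values measure the spread between libraries, which may be technical.

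The values are normalized counts, that is, reads counted per gene after division by the size factor of their library. Their totals were 183395941 and 81928351 for mitochondria and 6956699 and 8584617 for the rest, which stand for about 47400000, 32100000, 26300000 and 23500000 reads on genes. The mitochondrial chromosome took 97.57% and 93.53% of the mitochondrial counts and 63.22% and 67.51% of the rest counts. As a result, 3 reads are worth 11.6 and 7.65 normalized counts in mitochondrial replicates 1 and 2, but 0.793 and 1.10 in rest replicates 1 and 2. Cardiomyocyte markers were present in both fractions, with 8 of 8 listed and summed levels of 206409 to 278909 normalized counts in the mitochondrial and 208605 to 236784 in the rest libraries. Myh6 made up most of each sum, with 128576 to 184487 normalized counts. The log2 fold change of mitochondrial over rest was positive in 5 of the markers and negative in 3. It ran from 1.88 in Tnnt2 to −1.35 in Ryr2, and 0 had an adjusted p under 0.05 in limma.

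Because the control of these mRNAs is read at their first bases, start-site sequences were searched. Those shown are from members that had a match and are named in the results. RefSeq sequences around the annotated start (GRCm38.p6) matched 37 of the 49 members. They were searched on the sense strand, from 50 bases before to 50 bases after the start, for CTTT with a C or T at each of the 2 positions before and after it. The C of CTTT lay at 0, 2 and −1 bases from the annotated start in Rpl38, Rpl35 and Rpl7a. In Rpl13a, Rpl5 and Rpl19 it lay at 9, −18 and 34 bases, so not at that start. The capitals mark the matched letters in Rpl38 (chr11:114668567-114668596, plus strand), Rpl35 (chr2:39005113-39005142, minus strand), Rpl19 (chr11:98026945-98026973, plus strand), Rpl7a (chr2:26910793-26910822, plus strand), Rpl5 (chr5:107900497-107900526, plus strand) and Rpl13a (chr7:45128720-45128749, minus strand), all 5′ to 3′.
Rpl38: cggaagcctcgTTCTTTCCccgttctcttc
Rpl35: cccgccctttcCTCTTTCTctcgaaccagg
Rpl19: cggcccacaagCTCTTTCCtttcgctgct
Rpl7a: ttccctcttctTTCTTTCTccagcagccga
Rpl5: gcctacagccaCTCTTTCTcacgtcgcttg
Rpl13a: acaagacctccTCCTTTCCcaggcggctgc

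These letters were found in 19 of the 37 members (51.4%), in 11 of 25 cytosolic small subunit genes (44%), in 494 of 8396 other tested nuclear protein-coding genes (5.88%) and in 2007 of all 27025 genes with such a sequence (7.43%). On the opposite strand of the same window they were found in 0 of the 37 members and in 1793 of the 27025 genes (6.63%). A match is a string of letters and not a mapped start of an RNA. Over the 19 members its C lay from −32 bases (Rpl22) to 43 bases (Rpl10) from the annotated start. The share is therefore not one of members that start with a TOP sequence. The fold changes described below had a median of 1.34 on the log2 scale in the 19 members with a match and of 1.60 in the 17 tested members that had a sequence and no match, with ranges of −0.86 to 2.10 and of 0.35 to 2.0.

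The comparison of the fractions asks which RNAs are enriched with isolated mitochondria. The members summed to 17636 and 16969 normalized counts in mitochondria and to 6261 and 6668 in the rest fraction. Of the counts on nuclear protein-coding genes they made up 0.809% and 0.923% in mitochondria, compared with 0.312% and 0.326% in the rest fraction, so that the fractions did not overlap in this share. Of all counts in a library, in which the mitochondrial chromosome is included, they took 0.00962% and 0.0207% in mitochondria and 0.0900% and 0.0777% in the rest fraction, and the order was the opposite. The direction of every change below is therefore relative to the nuclear mRNAs in the same library.

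**Figure D1:**
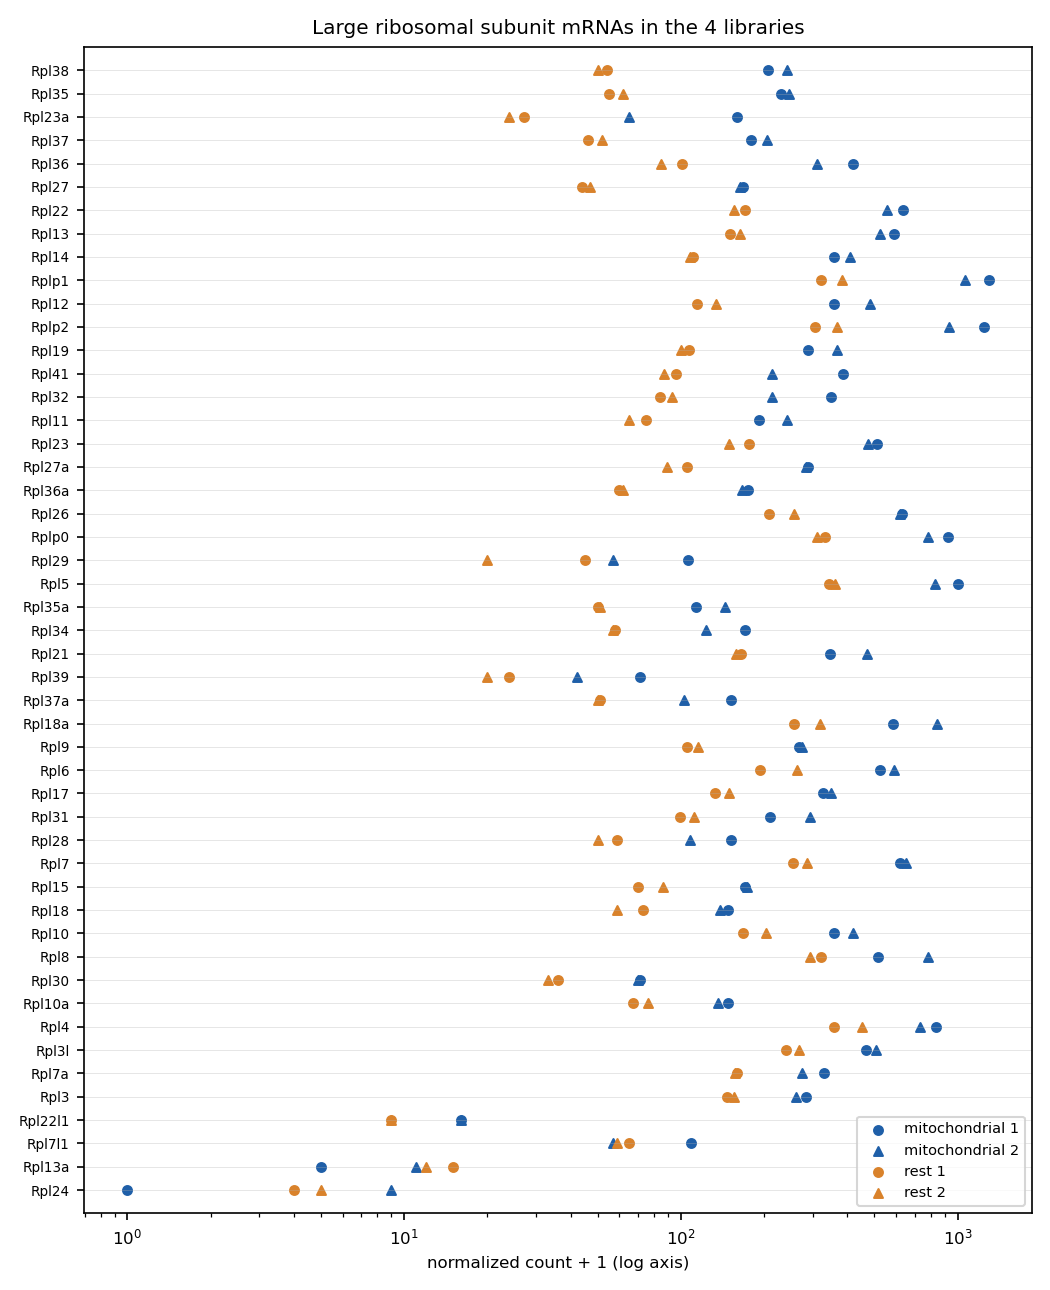
Normalized count plus 1 of each of the 49 members (log axis) in the 2 mitochondrial (blue) and the 2 rest libraries (orange), ordered by fold change, with the untested Rpl24 last. Both blue points lie to the right of both orange points in 46 of the 48 tested members, with the scaling as deposited, while Rpl7l1 overlaps between the fractions and Rpl13a lies the other way round.

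Of the 49 members, 48 passed the filter on low values (10 or more normalized counts in 2 or more libraries). With the deposited scaling, 22 of the 48 were higher in the mitochondrial fraction at an adjusted p under 0.05 in limma, against 2.16% of all 12150 tested genes and 1.92% of the nuclear protein-coding ones, and 0 were lower, against 1.39%, whereas scaled to the library total, 0 members were higher and 48 lower, as were 12022 of the 12150 genes. At an unadjusted p under 0.05, 44 of the 48 members were higher, against 14.1% of the tested genes, and 0 were lower. Both mitochondrial libraries were above both rest libraries in 46 of the 48, against 27.7%. The median log2 fold change of mitochondrial over rest was 1.34 in the 48 members, or 2.52-fold, and −0.14 in all tested genes. It was above 1 in 40 members and above 2 in 3. The calls were close to the threshold: adjusted p-values ran from 0.0427 to 0.0469 in the called members and were under 0.1 in 21 of the 26 others, the smallest being 0.0522. With any 1 library left out, 0 members and 0 genes of the whole table were called, while 32 to 47 members had an unadjusted p under 0.05, beside 590 to 2333 genes that were higher and 468 to 3324 that were lower at that level among the 12150, and the members' median stayed between 1.34 and 1.48.

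**Figure D2:**
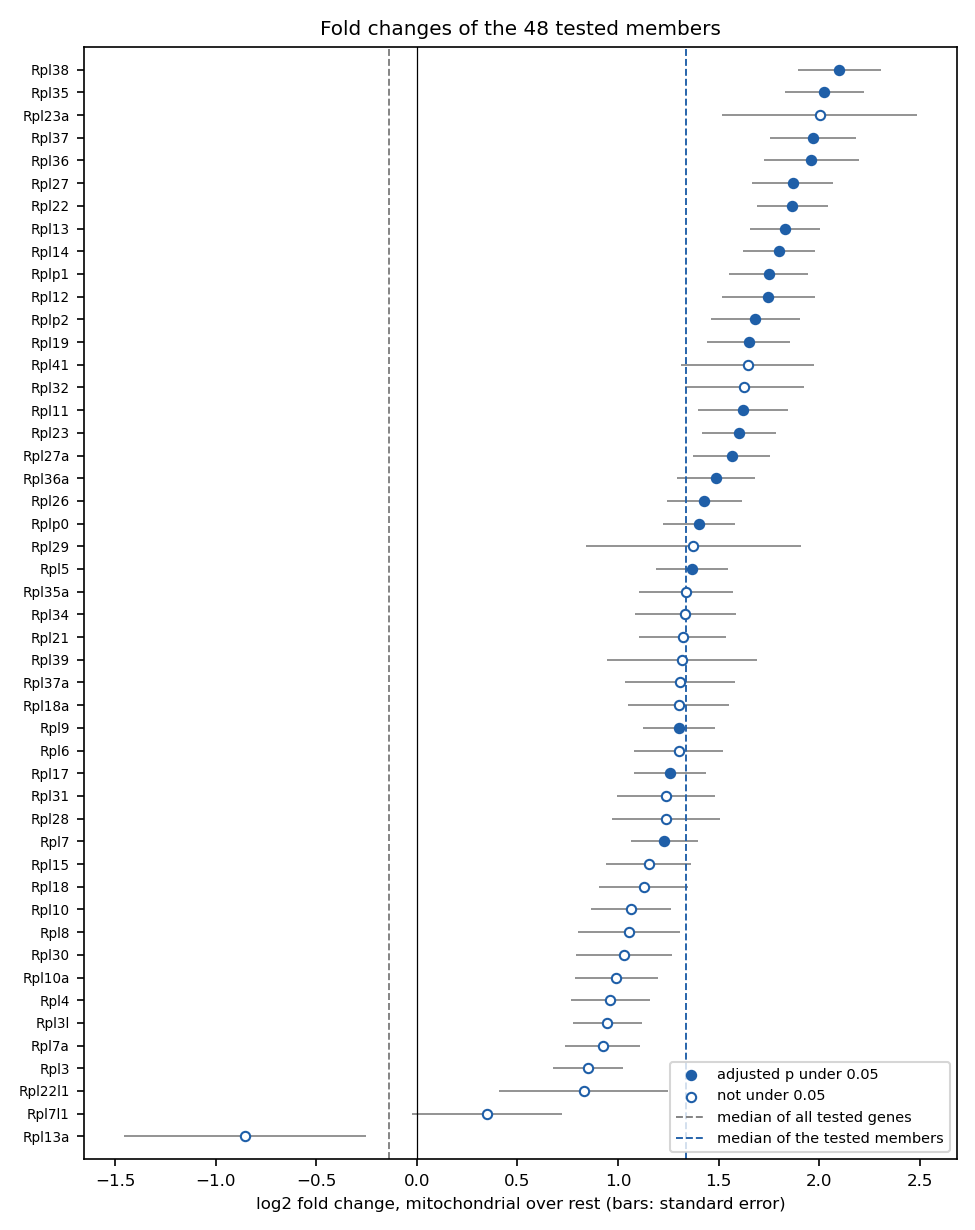
Log2 fold change of mitochondrial over rest, scaled as deposited, with its standard error (bars) for the 48 tested members. Filled points mark the 22 members with an adjusted p under 0.05, and dashed lines mark the medians of the members, 1.34, and of all tested genes, −0.14; scaled to the library total, all 48 fall below 0.

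The lateral stalk recruits the elongation factors to the ribosome. Rplp1, an acidic protein at the tip of the stalk, measured 1297 and 1064 normalized counts in the mitochondrial and 319 and 381 in the rest libraries, and was higher by 1.75 ± 0.20 (SE, n = 2 against 2, adjusted p = 0.0427 in limma). Its partner Rplp2 measured 1243 and 931 against 305 and 367, with a log2 fold change of 1.68 ± 0.22. Rplp0, which anchors both to the ribosomal RNA, measured 926 and 778 against 332 and 309, with 1.40 ± 0.18. In all 3 stalk mRNAs the lower mitochondrial library was over 2 times the higher rest library. Rpl12, which sits at the base of the stalk, measured 356 and 482 against 113 and 133, with 1.75 ± 0.23. The 4 mRNAs of the stalk and its base were called, with adjusted p-values of 0.0427 in limma. For this part and those below, 2.16% of all 12150 tested genes were called higher. In 27.7% of them both mitochondrial libraries were above both rest libraries.

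Rpl5 and Rpl11 bind the 5S ribosomal RNA and, outside the ribosome, the p53 regulator Mdm2. Rpl5 measured 999 and 826 normalized counts in the mitochondrial and 342 and 361 in the rest libraries, with a log2 fold change of 1.37 ± 0.18. Rpl11 measured 190 and 240 against 74 and 64, with 1.62 ± 0.22. Both were called by limma, with adjusted p-values of 0.0427 and 0.0461, and in both the fractions did not overlap.

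The 9 members of the exit tunnel include those around its mouth, where chaperones and the signal recognition particle dock. Of these 9, 5 were called, against 2.16% of all tested genes, and the median log2 fold change of the 9 was 1.43. Rpl35 was among the members with the greatest change, with 229 and 245 normalized counts against 54 and 61 and a log2 fold change of 2.03 ± 0.20. Rpl22, an RNA-binding protein needed by developing T cells, measured 635 and 556 against 170 and 155, with 1.87 ± 0.18. Rpl19 measured 287 and 365 against 106 and 99, with 1.65 ± 0.21. These were called at an adjusted p of 0.0427 in limma, and Rpl26 and Rpl17, with 1.43 and 1.26, were called as well. Rpl23a, a docking site beside Rpl35, had a fold change of the same size, 2.0, but was not called: its mitochondrial libraries held 159 and 64 normalized counts, 2.48-fold apart, its rest libraries 26 and 23, and its standard error was 0.49 (adjusted p = 0.078 in limma). Rpl4, which lines the tunnel with a long loop, measured 833 and 732 against 356 and 450, with 0.96 ± 0.20 and an adjusted p of 0.0635 in limma. Rpl39, which also lines the tunnel, measured 70 and 41 against 23 and 19, with 1.32 ± 0.37.

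The proteins nearest to the catalytic centre and the transfer RNAs had smaller fold changes, and 0 of 3 were called by limma, while all 3 had an unadjusted p under 0.05. Rpl3 measured 283 and 260 normalized counts against 146 and 154, with a log2 fold change of 0.85 ± 0.17. Rpl8 measured 515 and 781 against 319 and 291, with 1.06 ± 0.25. Rpl10, which joins the subunit late, in the cytosol, measured 356 and 418 against 167 and 202, with 1.07 ± 0.20. The fractions did not overlap in any of the 3, and whether they changed less than the stalk mRNAs was not tested. Rpl10a, of the mobile L1 stalk, measured 147 and 135 against 66 and 75, with 0.99 ± 0.21 and an adjusted p of 0.0639 in limma.

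A further 24 members, which leave out the paralogs and the proteins at the interface with the small subunit (Rpl24, Rpl30 and Rpl41), were put in none of these parts. Of these 24, 11 were called, against 2.16% of all tested genes, and the median log2 fold change of the 24 was 1.34. Rpl38, whose loss alters the patterning of the mouse skeleton, had the highest value of all members: 205 and 240 normalized counts against 53 and 49, and a log2 fold change of 2.10 ± 0.21. Rpl37 measured 178 and 204 against 45 and 51, with 1.97 ± 0.21, and Rpl36 measured 418 and 309 against 100 and 84, with 1.96 ± 0.24. The lower mitochondrial library of each was over 3 times the higher rest library. Rpl27, with 167 and 163 against 43 and 46, reached 1.87 ± 0.20. For Rpl13, with 589 and 523 against 149 and 162, the value was 1.83 ± 0.17, and for Rpl14, with 356 and 406 against 110 and 107, it was 1.80 ± 0.18. These 6 had the same adjusted p of 0.0427 in limma. The other called members of this group, Rpl7, Rpl9, Rpl23, Rpl27a and Rpl36a, had log2 fold changes of 1.23 to 1.60. At the other end, Rpl7a measured 329 and 273 against 159 and 156, with 0.92 ± 0.19 and an adjusted p of 0.0631 in limma.

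Rpl13a and Rpl24 were the members with the lowest level per kilobase in both fractions. Rpl13a, which also has a role in translational silencing after interferon gamma, measured 4 and 10 normalized counts in the mitochondrial and 14 and 11 in the rest libraries, so that mitochondrial replicate 1 was under the level of 3 reads. Its log2 fold change was −0.86 ± 0.60 (adjusted p = 0.384 in limma), the only negative value among the tested members, and it had just passed the filter on low values. Rpl24, a protein of a bridge to the small subunit, measured 0 and 8 against 3 and 4 and was not tested. Both genes overlap in part with a longer annotated gene on the same strand. Gm45713 contains 56.3% of the 75-base windows of Rpl13a, and Gm28037 contains 68.2% of those of Rpl24. Reads that overlapped several genes were excluded by the authors, and the part this had in the low values was not tested.

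A stretch of RNA that is also present in a pseudogene or another gene cannot be counted for its own gene when reads with several alignments are excluded. The share of unique sequence was therefore computed as the share of all 75-base windows of a member's main transcript that occur in no other annotated gene of GENCODE M21. The median over the 49 members was 52.1%. The share was under 25% in 12 members, under 50% in 24 and over 90% in 7. Rpl5 had the lowest share, 7.51%, followed by Rpl10 with 8.14% and Rpl9 with 8.74%, whereas Rpl3l had 100% and Rpl22 98.6%. Both strands were searched, and some of the other genes lie over a member's own locus. Wdr38, on the opposite strand of Rpl35, contains 54.9% of its windows, and the protein-coding gene Fam69a contains 44.6% of those of Rpl5. Reads from an overlap need not align to several regions, and whether they were counted depends on the use of strand, which is not given. Otherwise the level of a member with a low share rests on the unique part of its transcript. Fold changes did not follow this share: 11 of the 24 members under 50%, which include the untested Rpl24, and 11 of the 25 others were called. Across the 48 tested members the Spearman correlation of fold change with the share was −0.04, across genes that were measured in the same 4 libraries.

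**Figure D3:**
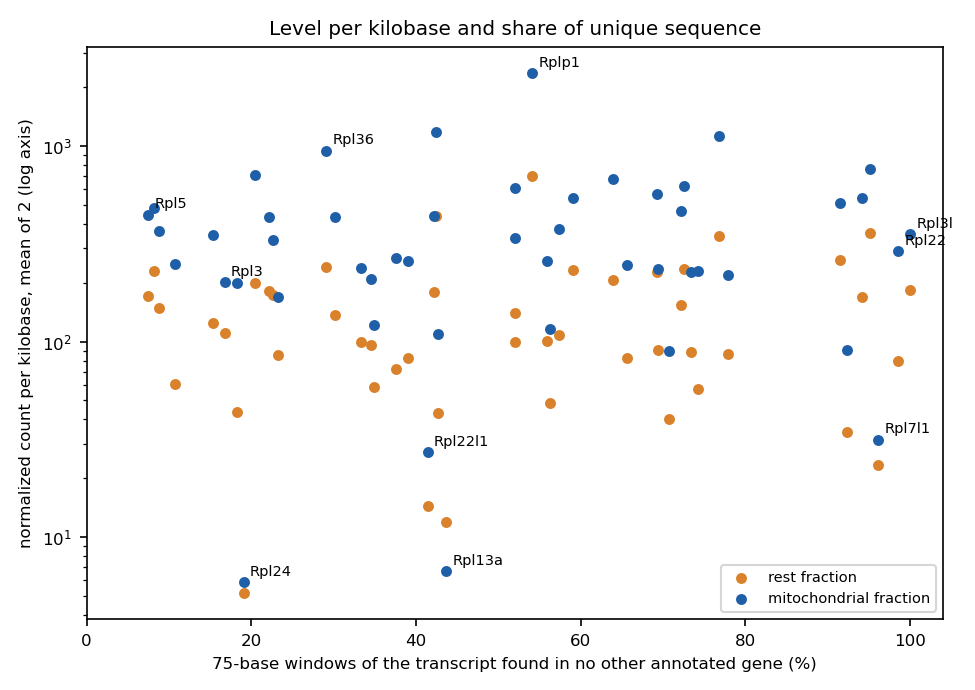
Normalized count per kilobase of transcript (mean of 2 libraries, log axis) of the 49 members in the mitochondrial (blue) and rest fractions (orange) against the share of 75-base windows that occur in no other annotated gene, with some members named. Rplp1 is at the top per kilobase in both fractions, Rpl24 and Rpl13a are at the bottom, and over the 48 tested members the Spearman correlation of level with the share of unique sequence is 0.022.

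Several copies that share these windows had values of their own. Gm15500, a pseudogene that contains 47.9% of the windows of Rpl5, measured 306 and 268 normalized counts in the mitochondrial and 92 and 111 in the rest libraries. For Gm15772, which contains 47.4% of the windows of Rpl26, the values were 271 and 186 against 68 and 70, and for Gm8730, which contains 13.6% of those of Rplp0, they were 314 and 227 against 105 and 109. These 3 were chosen after their values were seen. They were higher in the mitochondrial libraries with no overlap, as were Rpl5, Rpl26 and Rplp0, and the reads of a gene and its copy cannot be told apart where the sequences are the same.

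Per kilobase of transcript, the members spanned a wide range of levels. Rplp1 was at the top, with 2366 ± 330 normalized counts per kilobase in the mitochondrial and 701 ± 87.9 in the rest fraction (SD, n = 2). Rpl26 followed with 1185 ± 9.41 and 441 ± 64.5. Rplp2 had 1128 ± 229 in the mitochondrial fraction, which did not differ from Rpl26 beyond the spread, and 349 ± 45.5 in the rest fraction, where Rpl8 had 358 ± 23.3. The paralogs Rpl7l1 and Rpl22l1, and Rpl13a and Rpl24, filled the 4 lowest places in both fractions, with Rpl7l1 at 31.5 ± 14.1 and 23.4 ± 1.63. Per 1000 unique windows the top of this order changed. Rpl10 had 6559 ± 743 and 3127 ± 419.5, Rpl5 6166 ± 827 and 2375 ± 90.8, and Rplp1 5133 ± 716 and 1522 ± 191. The rest value of Rplp1 was below the 1879 ± 122 of Rpl9. The same 4 members filled the lowest places in both fractions. Windows shared only with a gene over the same locus count as not unique here. The order of the members was much alike in both fractions, with a Spearman correlation of 0.95 of the mean normalized counts over the 48 tested members, which share libraries and transcript lengths.

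The paralog Rpl3l was set against Rpl3 because both can occupy the same place in the ribosome. The first 90 bases of their coding sequences are shown with capitals where the genes differ, which is the case at 21 positions.
Rpl3: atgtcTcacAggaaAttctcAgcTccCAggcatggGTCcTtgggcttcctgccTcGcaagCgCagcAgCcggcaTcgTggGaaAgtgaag
Rpl3l: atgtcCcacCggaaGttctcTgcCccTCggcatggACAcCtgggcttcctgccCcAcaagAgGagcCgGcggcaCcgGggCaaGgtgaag

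Over the whole alignment, 896 of 1212 coding bases were identical (73.9%), the longest identical run had 22 bases, and the coding sequences share 0 windows of 75 bases, so that a read of this length can be placed in one or the other. Rpl3l measured 465 and 508 normalized counts in the mitochondrial and 238 and 266 in the rest libraries, and was above Rpl3 in each. Its log2 fold change was 0.95 ± 0.17 (adjusted p = 0.0561 in limma), beside 0.85 ± 0.17 for Rpl3. Per kilobase, Rpl3l had 354 ± 22.1 and Rpl3 201 ± 12.04 in the mitochondrial fraction, and 183 ± 14.4 and 111 ± 4.19 in the rest fraction. This order depends on the length used, because 16.8% of the windows of Rpl3 are unique and the pseudogene Rpl3-ps1 contains 78.5% of them. Per 1000 unique windows, Rpl3 had 1269 and Rpl3l 374 in the mitochondrial fraction, and 701 and 194 in the rest fraction, the opposite order.

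The ratio of Rpl3l to Rpl3 within a library does not depend on the scaling. It was 1.64 and 1.95 in the mitochondrial and 1.63 and 1.72 in the rest libraries, so that the fractions differed by 0.10 on the log2 scale, less than the spread of 0.19 between replicates (exact permutation test, two-sided, p = 0.667; the smallest p that 2 against 2 libraries allow is 0.333). For Rpl7l1, a diverged relative with 55.2% identical coding bases, the ratio to Rpl7 was 0.177 and 0.0878 against 0.256 and 0.206. Rpl7l1 itself measured 108 and 56 normalized counts against 64 and 58, with a log2 fold change of 0.35 ± 0.37 and overlapping fractions, while Rpl7 measured 616 and 648 against 253 and 285 and was called at 1.23 ± 0.17 (adjusted p = 0.0449 in limma). Rpl22l1 measured 15 and 15 against 8 and 8, with 0.83 ± 0.42, and passed the filter through its mitochondrial libraries alone. Its ratio to Rpl22 was 0.0252 and 0.0287 against 0.0526 and 0.0577. Both ratios were lower in the mitochondrial libraries with no overlap, by 0.88 and 1.04 on the log2 scale, each with the smallest possible p of 0.333 in the exact permutation test. For Rpl7l1 the difference was close to the spread of 0.75, and for Rpl22l1 it was larger than the spread of 0.16, although 15 normalized counts are near the 11.6 that 3 reads are worth in mitochondrial replicate 1. Over the 3 paralogs, 0 were called by limma and 1, Rpl3l, had an unadjusted p under 0.05.

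Most members are short mRNAs, with main transcripts of 364 to 2606 bases and a median of 833 bases. Rpl41, the shortest coding sequence, is printed whole with its stop codon, 78 bases in all.
Rpl41: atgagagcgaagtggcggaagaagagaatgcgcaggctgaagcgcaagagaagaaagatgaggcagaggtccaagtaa
It measured 383 and 212 normalized counts in the mitochondrial and 95 and 86 in the rest libraries, with a log2 fold change of 1.65 ± 0.33 (adjusted p = 0.0622 in limma).

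Short nuclear mRNAs in general had higher fold changes than long ones. Among transcripts of up to 500 bases, the median log2 fold change was 1.70 in 6 members and 1.75 in 46 other nuclear mRNAs, and 4 members and 43.5% of the others were called higher. Between 501 and 750 bases it was 1.33 in 12 members, 3 of them called, and 1.46 in 170 others, of which 24.1% were called. In these lengths the members lay at or slightly below the other mRNAs. Between 751 and 1000 bases the medians were 1.62 in 11 members and 0.91 in 294 others, with 7 members and 12.2% of the others called. Between 1001 and 1500 bases they were 1.30 in 13 members and 0.60 in 816 others, with 6 members and 4.41% called. Above 1500 bases, where only 6 members lie, the medians were 1.15 against 0.22 up to 2000 bases and 1.37 against −0.02 up to 3000 bases. From 751 bases on, the members' medians lay above those of other mRNAs of like length. The lengths are those of 1 annotated transcript per gene and can exceed those of the RNA present. The transcript used for Rpl35, for example, has 946 bases, with 538 of them before the coding sequence. What this choice of transcript contributed was not tested. The Spearman correlation of fold change with transcript length was −0.33 over the 48 members and −0.42 over 10563 other nuclear mRNAs, and with coding length it was −0.50 over the members. Fragmentation differed between the fractions, and the part of length and fragmentation in the result was not tested.

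**Figure D4:**
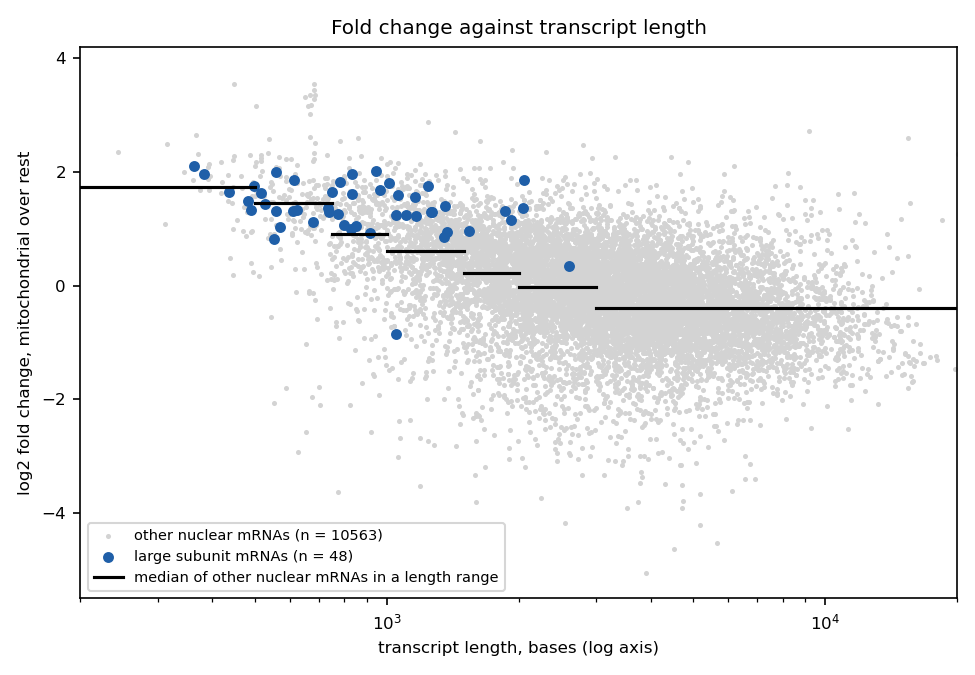
Log2 fold change of mitochondrial over rest, scaled as deposited, against the length of the main transcript (log axis) for 48 large subunit mRNAs (blue) and 10563 other nuclear protein-coding genes (grey), with the median of the others in each length range as a black line. Up to 750 bases the members lie around the line, and above 750 bases most lie over it; scaled to the library total, all members fall below 0.

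Genes with related roles are given for comparison from lists that were not trimmed by their values. Of all 12150 tested genes, 2.16% were called higher and 1.39% lower in limma. At an unadjusted p under 0.05, 14.1% were higher. Of the mRNAs of the cytosolic small subunit, 18 of 32 were called higher and 0 lower in limma, all 32 were higher at an unadjusted p under 0.05, and the median log2 fold change was 1.46. Their range ran from 0.87 in Rps4x to 2.08 in Rps29, beside −0.86 in Rpl13a to 2.10 in Rpl38 for the large subunit. The mitochondrial large subunit works inside mitochondria, but its proteins are also made in the cytosol. Of its mRNAs, 4 of 48 were called higher and 0 lower, 31 were higher at an unadjusted p under 0.05, and the median was 0.99. The called ones were Mrpl30, Mrpl42, Mrpl54 and Mrpl18, with 1.61 to 1.94.

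Factors that assemble and export the 60S subunit act in the nucleus and the cytosol and are not ribosomal proteins. Of these, 2 of 61 were called higher and 0 lower, near the shares over all tested genes of 2.16% and 1.39%. At an unadjusted p under 0.05 in limma, 15 were higher and 2 lower, against 1718 and 1965 of the 12150 tested genes. The median of the list was 0.35. Npm1, a nucleolar chaperone, measured 616 and 515 normalized counts against 145 and 160 and had a log2 fold change of 1.88 ± 0.19, and Dnajc21, a cochaperone of late maturation, measured 298 and 260 against 92 and 103 and had 1.51 ± 0.19. The lowest value of the list, −1.50 in Urb1, was not called. Among 31 translation factors and related mRNAs of the TOP class, 5 were called higher and 0 lower, 18 were higher and 0 lower at an unadjusted p under 0.05, and the median was 0.72. The called genes were Npm1, which is in both lists, Ncl with 1.77, the growth-linked Tpt1 with 1.65, and the initiation factor subunits Eif3g with 1.42 and Eif3a with 1.32, whereas Naca, of the nascent chain complex, had −0.41 and was not called. All of these directions hold with the deposited scaling; scaled to the library total the medians of all 4 lists were negative, and scaled to the total without the mitochondrial chromosome those of the assembly factors and of the translation factors were.

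The scaling set the sign of the members' changes. Each scaling divides all values of a library by a constant, so that apart from the pseudocount it shifts all genes alike. The place of the members among other genes could therefore change little. Scaled to the library total, the median of all tested genes moved from −0.14 to −3.93 and that of the members from 1.34 to −2.60. Scaled to the total without the mitochondrial chromosome, the medians were −0.98 and 0.48, and 8 members were called higher. The members' median lay above that of all tested genes by 1.48 as deposited and by 1.33 and 1.46 under these scalings, and 47 of the 48 members were above the median of all genes in each.

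**Figure D5:**
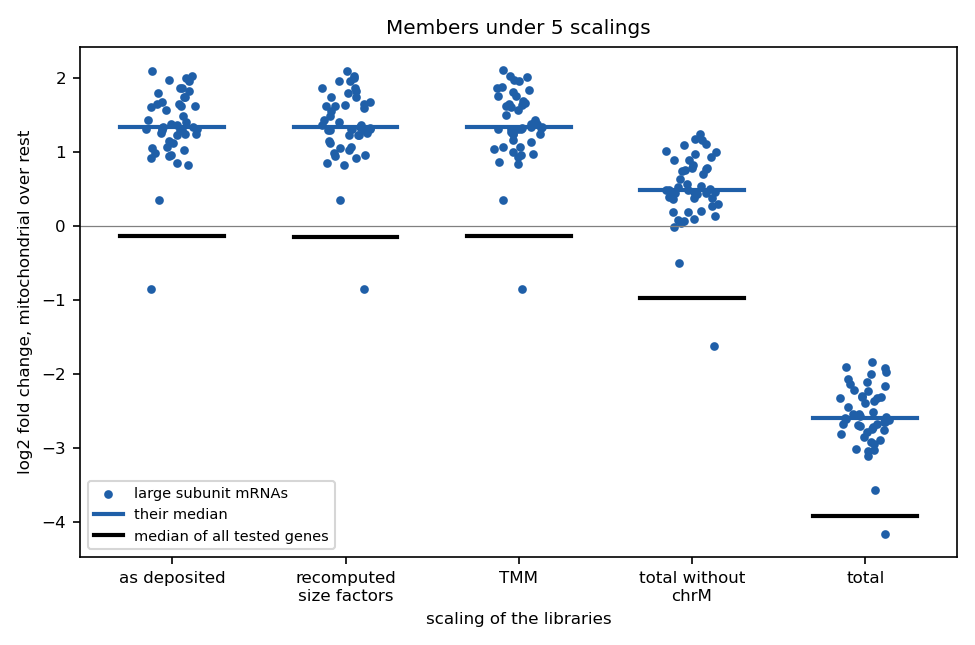
Log2 fold changes of the 48 tested members (points), their median (blue line) and the median of all tested genes (black line) with the deposited values, with recomputed size factors, with TMM (the trimmed mean of M-values), and scaled to the library total without and with the mitochondrial chromosome. The members' median is 1.34, 1.33, 1.34, 0.48 and −2.60 in this order. It lies above the black line by 1.33 to 1.48 in each, a distance that a scaling can change only through the pseudocount.

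The summed markers of some other cells did not overlap between the fractions, while those of skeletal muscle did. Of 5 red blood cell markers, 5 had lower values in both mitochondrial libraries, as had 4063 of all 12150 tested genes. Their median log2 fold change was −2.09, and their summed levels were 50 and 341 against 824 and 440 normalized counts. Of these 5 markers, 0 had an unadjusted p under 0.05 in limma. The 4 endothelial markers summed to 1402 and 1214 against 2395 and 2173, and the 4 fibroblast markers to 7746 and 3170 against 2003 and 2855. The 3 leukocyte markers summed to 271 and 181 against 108 and 176, the 3 skeletal muscle markers to 593 and 974 against 249 and 698, and the 2 smooth muscle markers to 136 and 423 against 588 and 1374. The leukocyte sums were close to an overlap, and Lyz2 itself overlapped, with 178 and 112 against 63 and 119. An unadjusted p under 0.05 in limma was found in 4 of 4 endothelial and 1 of 2 smooth muscle markers. It was found in 0 of the fibroblast, leukocyte and skeletal muscle markers, and in 3683 of all 12150 tested genes. Of these lists, 1 gene was called, Myh11 of smooth muscle, which was lower by limma. In such bulk samples, fewer cells of a type and less RNA per cell cannot be told apart, and the part of other cells in the members' values was not tested.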

How the data were processed

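RNA was sequenced from mitochondrial and rest fractions of mouse hearts, with 2 libraries each, grouped by the labels. Per the submitters' processing notes, Trimmomatic 0.39, STAR 2.7.10a, featureCounts 2.0.2 and DESeq2 1.30.1 were used on mm10 (GRCm38). Reads that overlapped several genes or aligned to several regions were excluded. The deposited signal is a gene's read count over its library's size factor, which the authors rounded to whole values (normalized counts). The use of strand in counting is not given in the sources used here. Because reads could not be restored from rounded values, tests of counts were replaced by limma 3.58.1 (R 4.3.3) (trend in the prior variance) on log2 values with a pseudocount of 1, for the 12150 genes that reached 10 normalized counts in 2 or more libraries. Fold changes are on this scale. Benjamini-Hochberg adjustment ran over all 12150 genes, with calls at 0.05. The fit was tested on simulated data. Reads per library were estimated from the spacing of the values, and the level of 3 reads covers counting error only.

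The members and gene lists were chosen with earlier results of these data known. Values in every library are given for called members (up to 12 by fold change), the 5 highest and 5 lowest fold changes, the stalk genes, the paralogs with their main forms and the extremes of level. Rpl4, Rpl5, Rpl8, Rpl10a, Rpl11 and Rpl41 were named for their place in the subunit. Genes of other lists are named when called or extreme. Lengths, windows of 75 bases on both strands and coding sequences came from 1 main transcript per gene of GENCODE M21 (GRCm38), in which all 49 members had the deposited start and end, and start sites from RefSeq. Scripts ran in Python 3.11.15 with pandas 2.3.3, matplotlib 3.10.9, scipy 1.17.1 and numpy 2.4.6. Alternatives were 4 other scalings, 2 other filters, pseudocounts of 0.1 and 10, the replicate number as a block and each library left out.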

Additional observations from a re-analysis of the deposited data

How the results depend on the processing

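As deposited, 22 members were called higher, 0 lower, and 262 and 169 of all genes. Recomputed size factors called 22 members and 299 of 12150 genes higher, TMM 26 and 369, and no filter 23 and 279 of 15746, with 630 genes lower. Whether a replicate number marks shared hearts is not given in the sources used here. Their deviations correlated with r = 0.13 over all tested genes and 0.30 over the members, and with the replicate block 32 members and 470 genes were called higher and 309 genes lower. A mean above 50 normalized counts called 42 members higher, with 790 and 670 genes, and a pseudocount of 10 called 34, with 536 and 580. A pseudocount of 0.1 called 0 members and 0 genes in limma, with 44 members at an unadjusted p under 0.05 and a smallest adjusted p of 0.0543. Leaving out any 1 library left 0 members and 0 genes in either direction, a fit in which the lone library is assumed to vary like the others, and the members' median ranged from 1.34 to 1.48. Scaled to the total without the mitochondrial chromosome, 8 members and 129 genes were called higher and 3819 genes lower, the members' median was 0.48, and those of the assembly factors and translation factors were −0.50 and −0.14. Scaled to the library total, 0 members and 2 genes were called higher and 48 and 12022 lower. The medians were then −2.60 for the members, −2.49 for the small subunit, −2.93 for the mitochondrial large subunit, −3.51 for the assembly factors and −3.25 for the translation factors.

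The log2 fold changes of the named members scaled to the library total, all negative, were Rpl10 −2.90, Rpl10a −2.95, Rpl11 −2.33, Rpl12 −2.22, Rpl13 −2.14, Rpl14 −2.17, Rpl19 −2.31, Rpl22 −2.11, Rpl22l1 −2.77, Rpl23a −1.90, Rpl27 −2.07, Rpl3 −3.11, Rpl35 −1.92, Rpl36 −2.0, Rpl37 −1.97, Rpl38 −1.84, Rpl3l −3.03, Rpl4 −3.02, Rpl41 −2.31, Rpl5 −2.61, Rpl7 −2.75, Rpl7a −3.04, Rpl7l1 −3.57, Rpl8 −2.92, Rplp0 −2.58, Rplp1 −2.23, Rplp2 −2.30.

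A single member changed sign in 3 further cases: Rpl3 was −0.0094 and Rpl7l1 −0.50 scaled to the total without the mitochondrial chromosome, and Rpl7l1 was −0.12 without mitochondrial replicate 1, in a range of −0.12 to 0.82 over the libraries left out. With libraries left out, the difference of the Rpl3l to Rpl3 ratios ranged from −0.028 to 0.22, being negative without mitochondrial replicate 2, that of Rpl7l1 to Rpl7 from −1.39 to −0.38, and that of Rpl22l1 to Rpl22 from −1.13 to −0.94, the last being −1.34 with a pseudocount of 10. The cause of these differences was not tested. DESeq2 and edgeR were not run since normalized values are not counts. The levels per kilobase of unique windows and of all exonic bases were chosen after seeing the data. Depth limits the mitochondrial values: Rpl13a, Rpl22l1 and Rpl24 lie at or near the level of 3 reads.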

Other observations

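The table also lists 67 other loci whose symbol starts with Rpl and ends in a pseudogene number or another suffix, mostly processed pseudogenes of the large subunit genes. Of these, 47 were tested, 6 were called higher and 0 lower in limma, 34 were higher and 0 lower at an unadjusted p under 0.05, and both mitochondrial libraries were above both rest libraries in 45. Over all 12150 tested genes, 2.16% were called higher, 14.1% were higher at that unadjusted p, and 27.7% had both mitochondrial libraries above. The median log2 fold change of the 47 loci was 1.62 with the deposited scaling, beside 1.34 for the members and −0.14 for all tested genes. Loci with both rest values under 10 normalized counts passed the filter on low values only through their mitochondrial values. Rpl36-ps3 and Rpl19-ps9 are among these, so that the median and the counts above follow in part from the filter. Rpl36-ps3 had the highest value, with 31 and 31 normalized counts against 4 and 4 and 2.68 ± 0.41, and Rpl19-ps9 followed, with 46 and 38 against 7 and 7 and 2.42 ± 0.35. Rpl36a-ps1, Rpl27-ps3, Rpl10-ps3 and Rpl6l were also called, with 1.62 to 2.28. The lowest value was 0.34 in Rpl3-ps2, with 23 and 51 against 15 and 48, which overlapped between the fractions. These loci resemble the members in sequence, and reads of a gene and its copy cannot be told apart where they are the same.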
